A study of Homo sapiens with 10 samples.

Results

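H19 and the imprinted growth genes usually studied beside it were followed through the hepatic differentiation of human embryonic stem cells. The 10 genes were chosen by name, with earlier results of these data known: H19, IGF2, MEG3, DLK1, PEG10, PEG3, MEST, CDKN1C, GRB10 and PLAGL1. Of these, 9 have a row among the 12125 genes of the expression table, and PEG3 is not analysed here. Bulk RNA-seq was made from the established embryonic stem cell line H1, with 1 library on each of days 0 to 3, on days 5, 7, 9, 11 and 13, and on day 21. The day 0 cells received no factor, and Activin A (100 ng/ml) was given for 3 days up to day 3. FGF4 (30 ng/ml) with BMP2 (20 ng/ml) followed for 4 days, and HGF with KGF (20 ng/ml each) for 6 days. Oncostatin M (OSM, 20 ng/ml) was given for the last 8 days, to day 21. The labels place the day 13 library under OSM, whereas these durations make day 13 the end of the HGF/KGF step.

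Imprinted genes are transcribed mainly from the copy inherited from the mother or from the copy inherited from the father, through DNA methylation set in the germ line. H19, MEG3 and CDKN1C are known as maternally expressed, and IGF2, DLK1, PEG10, MEST and PLAGL1 as paternally expressed. The parent whose copy of GRB10 is used depends on tissue and isoform, so that gene was kept apart. Paternally expressed genes often promote fetal growth and maternally expressed ones often restrain it, and H19, IGF2 and DLK1 are abundant in fetal liver and decline in the adult organ. These classes are background, because the table does not separate the parental copies.

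The values are whole-number scores, normalised for GC content by the authors, and not read counts. The libraries sum to between 2330948 and 2362740, and the maximum of 18734 is shared by 10 genes in every library. The paper reports a shallow average sequencing depth on a MiSeq, and the depth of each library is not given. The next values lie close to levels that recur in every library (near 6495, 4858, 3862 and so on), each with 9 or 10 genes within 10 units of it. A gene at 18734 cannot rise further, and the size of a change into that level is set by it. Values are not divided by transcript length, and levels were therefore compared between days and not between genes. Changes between days are given on the log2(value + 1) scale, on which the change of a low gene comes out smaller than its ratio. No difference has a replicate check and none was tested. As a low measure of error, the libraries of days 9 and 11, both from HGF/KGF medium, were set against each other. The SD of their log2 differences over the 500 genes nearest in level was 0.93 at a value of 10, 0.51 at 50, 0.33 at 100 and 0.26 at 1000. This SD holds no variation between cultures or between media, and is not the error of a change across a step. A change was called where it was at least 4-fold on this scale and the larger value was at least 50, and "rose" and "fell" are used for called changes. Genes with a larger value below 50 were not tested in that step, whatever their fold. Marker genes followed the labelled stages. The summed value of 6 pluripotency genes was 12133 on day 0 and 98 on day 21. That of 6 definitive endoderm genes was 22 on day 0 and 21876 on day 3, of which CER1 alone held 18734. That of 7 hepatocyte genes was 108 on day 3 and 53385 on day 21, when TTR and SERPINA1 were each at 18734. The medians of the 3 lists over the same days went from 1735 to 4.5, from 3.5 to 679 and from 16 to 3865.

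H19 encodes a long non-coding RNA of fetal tissues that also carries a microRNA in its first exon. The gene (ENSG00000130600) lies on the reverse strand of chromosome 11 at 2016406 to 2019105 in the coordinates of the table. MEG3, a maternally expressed non-coding RNA on chromosome 14, and MEST, a paternally expressed gene on chromosome 7, likewise lie over a microRNA. The mature sequences are shown because they lie within the RefSeq genes of these names. Whether the measured intervals of the table hold them was not examined. The sequences are written from RefSeq on GRCh38.p14, 5′ to 3′, with the seed (bases 2 to 8) in capitals, and the microRNAs themselves were not measured by these libraries.
hsa-miR-675-5p, within H19: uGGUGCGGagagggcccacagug
hsa-miR-675-3p, within H19: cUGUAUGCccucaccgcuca
hsa-miR-335-5p, within MEST: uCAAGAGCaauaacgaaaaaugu
hsa-miR-335-3p, within MEST: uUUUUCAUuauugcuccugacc
hsa-miR-770-5p, within MEG3: uCCAGUACcacgugucagggcca
None of these seeds is shared by another sequence of the set.

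The promoters of H19 and MEG3, the non-coding members of the pairs described next, are shown for comparison (RefSeq, GRCh38.p14, 250 bases before to 50 bases after a start). Capitals mark motifs found by a search of both strands for the TATA box (letters TATAAA), the box named for its letters CCAAT, the cAMP response element (letters TGACGTCA), the GC box (letters GGGCGG) and a core letter string of the PLAGL1 motif (GGGGCCCC).
H19, chr11:2001217-2001516, reverse strand: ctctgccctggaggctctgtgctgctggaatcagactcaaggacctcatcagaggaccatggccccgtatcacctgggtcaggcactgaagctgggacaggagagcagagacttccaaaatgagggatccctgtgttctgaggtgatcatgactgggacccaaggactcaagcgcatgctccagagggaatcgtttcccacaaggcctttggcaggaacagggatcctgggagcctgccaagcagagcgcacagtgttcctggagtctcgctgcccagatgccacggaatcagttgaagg
MEG3, chr14:100825858-100826157, forward strand: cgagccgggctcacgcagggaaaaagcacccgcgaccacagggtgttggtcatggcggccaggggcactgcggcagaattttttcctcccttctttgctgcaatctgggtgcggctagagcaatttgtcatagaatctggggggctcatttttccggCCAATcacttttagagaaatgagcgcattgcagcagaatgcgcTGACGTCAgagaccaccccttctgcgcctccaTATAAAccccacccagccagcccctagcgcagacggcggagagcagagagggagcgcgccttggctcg
These windows sit at RefSeq starts matched by symbol, in coordinates that differ from those of the table. They were not matched to the starts of the measured intervals and may lie away from them. The H19 window holds 6 CpG and none of the 5 motifs. The MEG3 window holds 19 CpG, a CCAAT box at -93, the cAMP response element TGACGTCA at -50 and a TATA box at -18 from the start. Over 35116 RefSeq promoters of this length, 34.6% held CCAAT, 11.5% TATAAA and 1.85% TGACGTCA, and a match is a description of letters and not of factor binding.

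H19 was low in the stem cells and through definitive endoderm and then reached the highest level of the table. Its values were 16 on day 0, 2 on day 1, 5 on day 2 and 1 on day 3, then 63 on day 5, 474 on day 7 and 18734 on days 9, 11, 13 and 21. The 4 last libraries thus hold H19 at the ceiling, and any further change among them cannot be seen. From day 3 to day 7 H19 rose by 7.89 log2 units (SD 1.08 from days 9 and 11 at these levels), and from day 7 to day 13 it rose by 5.30 (SD 0.29), all of it by day 9 and to the maximum.

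IGF2 encodes insulin-like growth factor 2, a growth factor of the fetus, and shares with H19 a methylated control region and enhancers. The gene (ENSG00000167244) lies on the same strand at 2150342 to 2158520 of chromosome 11, 131 kb from H19 in the table. Its values were 3 on day 0, listed at 0 on day 1, 4 on day 2, 7 on day 3, 62 on day 5 and 124 on day 7, then 2796 on day 9, 6494 on days 11 and 13 and 3861 on day 21. IGF2 rose by 3.97 (SD 0.90) from day 3 to day 7 and by 5.70 (SD 0.30) from day 7 to day 13, and the day 13 to day 21 difference was -0.75. Its value on days 11 and 13 lies in the level near 6495, which 10 genes hold within 10 units in these libraries.

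The H19 and IGF2 profiles had a Pearson r of 0.975 over the 10 days. This is a description over single libraries that share one scale and 4 days at ceiling for H19. Their steps were unequal: between days 3 and 7 the log2 change of H19 was larger by 3.93, between days 0 and 3 it was smaller by 4.09 (both genes were at 16 or less there), and the day 7 to day 13 changes were not compared, because H19 was at the maximum. AC132217.4 (2150351 to 2151194, the same strand) is held within the IGF2 interval over its 844 bases, and its values were 3 or less through day 5, 8 on day 7, 331 on day 9, 890 on day 11, 1638 on day 13 and 1554 on day 21. Reads of IGF2 may have been divided between these rows. IGF2-AS1, the antisense transcript, was listed at 0 through day 7 and had 18, 21, 60 and 66 on days 9, 11, 13 and 21. The TruSeq kit is not stated to mark strand, and the table intervals of IGF2 and IGF2-AS1 lie 3.35 kb apart. Whether reads of IGF2 were counted in the IGF2-AS1 row was not tested.

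**Figure D1:**
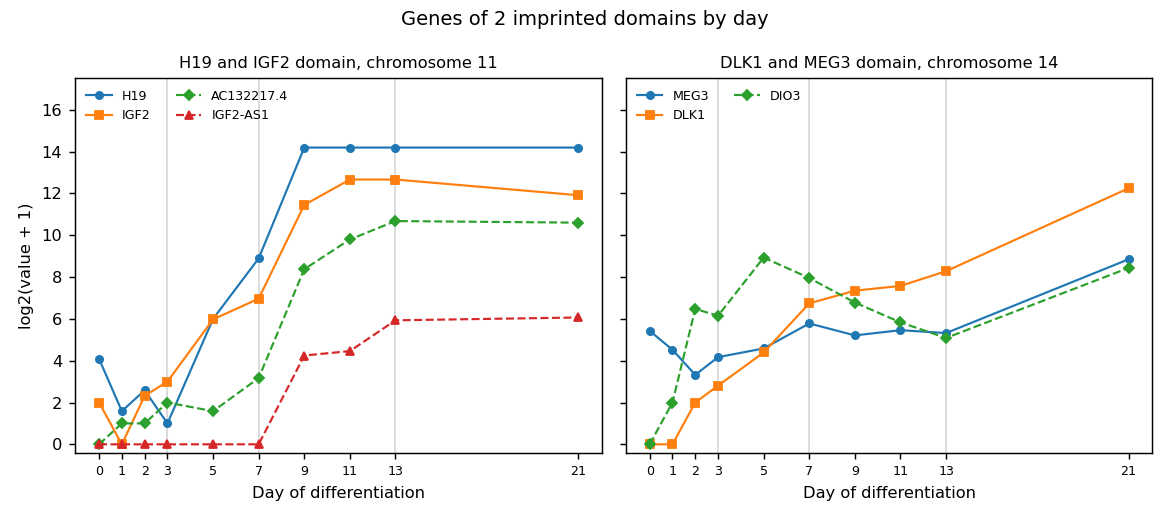
Values as log2(value + 1) by day of differentiation for the H19 and IGF2 domain (left) and the DLK1 and MEG3 domain (right), 1 library per day, with solid lines for the genes chosen by name, dashed lines for other rows of the domain, and vertical lines at days 3, 7 and 13. H19 is at 18734 from day 9, IGF2 reaches 6494 on day 11, and DLK1 and MEG3 are both highest on day 21.

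DLK1 and MEG3 form the second imprinted pair, on the forward strand of chromosome 14, 47.3 kb apart. DLK1 (ENSG00000185559, 101192042 to 101198407) encodes a transmembrane protein of hepatoblasts that resembles Notch ligands. It was listed at 0 on days 0 and 1, and had 3 on day 2, 6 on day 3, 20 on day 5 and 106 on day 7. It then had 162, 190 and 310 on days 9, 11 and 13, and 4855 on day 21. DLK1 rose from day 3 to day 7 by 3.93 (SD 0.98) and from day 13 to day 21 by 3.96 (SD 0.28), and no day was below the one before it.

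MEG3 (ENSG00000214548, 101245747 to 101295522) moved late. Its values were 42, 22, 9 and 17 on days 0, 1, 2 and 3, 23 on day 5, 54 on day 7, 36 on day 9, 43 on day 11 and 39 on day 13. On day 21 it was 460, a rise of 3.53 (SD 0.37) from day 13. Before day 21 all values of MEG3 lay between 9 and 54, while DLK1 went from 0 to 310, and the pair had an r of 0.746. DIO3, which encodes the deiodinase that inactivates thyroid hormone and ends this domain 829 kb from DLK1, followed a course of its own. It was listed at 0 on day 0, rose to 70 on day 3, was highest at 488 on day 5, fell from 247 on day 7 to 33 on day 13 and rose to 345 on day 21. All 3 measured genes of the domain rose between days 13 and 21.

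CDKN1C (ENSG00000129757, chromosome 11, 2904443 to 2906979, reverse strand) encodes the cell cycle inhibitor p57 and belongs to the second imprinted domain of that chromosome arm. Its values were 20, 30, 30 and 57 on days 0 to 3, 372 on day 5 and 1045 on day 7. Thereafter it stayed between 724 and 1130. The rise from day 3 to day 7 was 4.17 (SD 0.34), and the changes of the next 2 steps were -0.53 and 0.64. Its rise came before the larger of the 2 rises of IGF2, a gene 746 kb away. Of its measured neighbours, SLC22A18 had 33 on day 0, 56 on day 7 and 142 on day 21, and PHLDA2, a placental growth restrainer, had values of 1 to 28. Neither was called in any of the 4 steps. PHLDA2 went from 28 on day 7 to 2 on day 13, a log2 change of -3.27 below the minimum value.

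MEST (ENSG00000106484, chromosome 7, 130126046 to 130146133, forward strand) encodes a hydrolase-like protein of mesoderm and its derivatives. Its values were 558, 430, 304, 275 and 254 on days 0, 1, 2, 3 and 5, then 528 on day 7, 1328 on day 9, 2434 on day 11, 3434 on day 13 and 2799 on day 21. MEST rose by 2.70 (SD 0.29) between days 7 and 13, after being lowest on day 5. COPG2 overlaps it by 45 bases on the opposite strand, and went from 136 on day 0 to 30 on day 21 with an r of -0.623 to MEST.

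PLAGL1 (ENSG00000118495, chromosome 6, 144261437 to 144290115, reverse strand) encodes a zinc finger factor linked to transient neonatal diabetes. It was listed at 0 on day 0, had 6 to 16 from day 1 to day 7, and had 61, 78, 109 and 310 on days 9, 11, 13 and 21. PLAGL1 rose by 3.61 between days 7 and 13 with an SD of 0.83, which is wide because the day 7 value was 8.

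PEG10 (ENSG00000242265, chromosome 7, 94285637 to 94299007, forward strand) derives from a retrotransposon and is needed for the placenta. It was highest on day 5. Its values were 478, 348, 890 and 1490 on days 0, 1, 2 and 3, 4856 on day 5, 980 on day 7, 605, 659 and 574 on days 9, 11 and 13, and 1045 on day 21. Between days 5 and 7, a pair of days chosen after the values were seen, PEG10 fell by 2.31 (SD 0.28). The 1.70 from day 3 to day 5 did not reach the fold, and PEG10 was not called in any of the 4 steps. SGCE, its paternally expressed neighbour, was also highest on day 5, at 153 against 149 on day 21, 111 on day 3 and 68 on day 7. TFPI2, farther along, went the other way, with 91 on day 3, 3 on day 5 and 9 on day 7.

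GRB10 (ENSG00000106070, chromosome 7, 50657765 to 50794815, reverse strand) encodes an adaptor that restrains insulin and IGF receptor signalling. Its values lay between 142 on day 1 and 502 on day 5, with 270 on day 0, 494 on day 3, 458 on day 7, 190 on day 13 and 410 on day 21. It was the only one of the 9 genes whose values spanned less than 4-fold. Its neighbours moved more: DDC, which makes dopamine and serotonin, was listed at 0 on day 3 and had 124 on day 7, and COBL had 47 and 205 on these days.

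**Figure D2:**
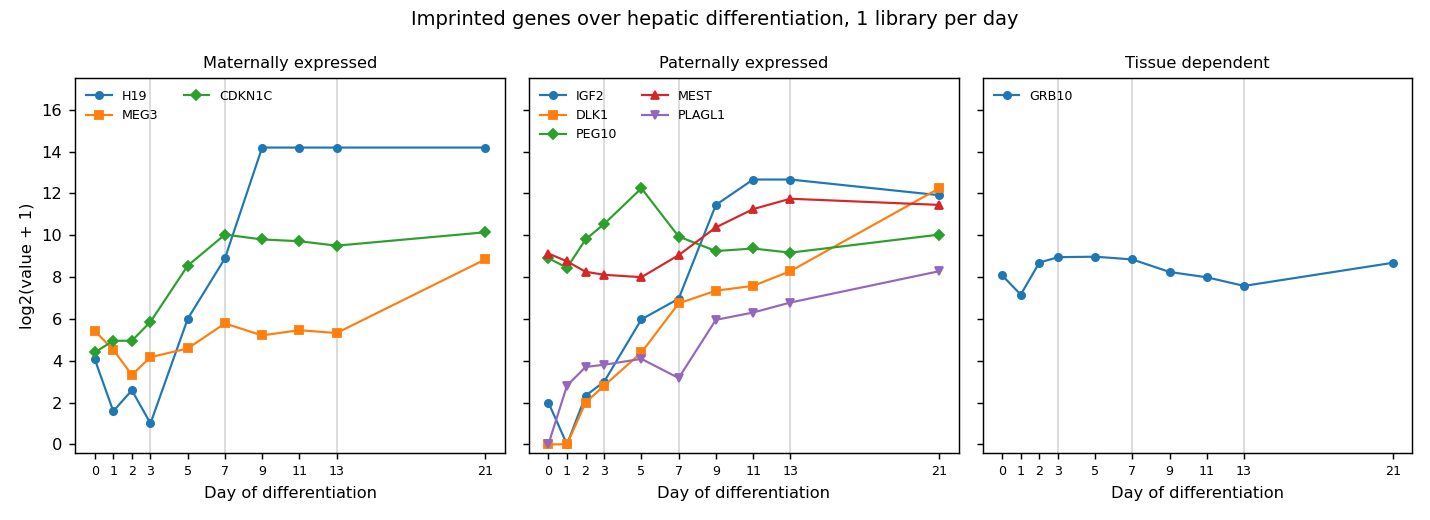
Values as log2(value + 1) by day for the 9 genes, split into maternally expressed (3), paternally expressed (5) and tissue dependent (GRB10), with 1 library per point and vertical lines at days 3, 7 and 13. H19 and IGF2 climb from day 3 to days 9 and 11, CDKN1C by day 7, DLK1 and MEG3 to day 21, PEG10 peaks on day 5, and GRB10 stays between 142 and 502.

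Over the whole course the 9 genes spanned a median of 5.75 log2 units, and 8 of 9 spanned at least 2. Over all 12125 genes the median was 1.70, and 41.5% spanned at least 2. Because the genes were chosen with such values known, these figures describe them and carry no test.

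By step, the calls were as follows. From day 0 to day 3 none of the 9 genes was called in either direction, where 3.94% of the tested genes were called higher and 2.16% lower. Only 4 of the 9 were tested in this step, and H19 (-3.09), DLK1 (2.81) and PLAGL1 (3.81) passed the fold with values of at most 16. From day 3 to day 7, 4 genes rose (H19, IGF2, DLK1 and CDKN1C), beside 5.63% of tested genes called higher and 4.41% lower. From day 7 to day 13, 4 rose (H19, IGF2, MEST and PLAGL1), beside 3.08% higher and 2.46% lower. From day 13 to day 21, 2 rose (MEG3 and DLK1), beside 2.28% higher and 1.62% lower. None of the 9 fell in any of the 4 steps. Between the ends of the course, days 0 and 21, 7 of 9 rose, all but PEG10 and GRB10, beside 11.9% of tested genes higher and 11.5% lower. The median change of the 9 genes was 1.00, 1.61, 1.54 and 0.86 in the 4 steps, where that of all genes was -0.04, -0.03, -0.04 and -0.10.

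Successive libraries, a comparison chosen after the values were seen, placed the calls more closely. Up to day 3 none of the 9 genes was called between successive days. Of all tested genes, 1.02% were called higher and 0.811% lower from day 0 to day 1, 1.12% and 0.291% from day 1 to day 2, and 0.375% and 0.0702% from day 2 to day 3. Between days 3 and 5 H19, IGF2 and CDKN1C rose, beside 2.85% of tested genes called higher and 2.24% lower. Between days 5 and 7 H19 and DLK1 rose, beside 2.25% called higher, and PEG10 fell, beside 1.34% called lower. Between days 7 and 9 H19, IGF2 and PLAGL1 rose, beside 0.757% called higher and 0.245% lower. None of the 9 was called between days 9 and 11, where 0.107% of tested genes were called in each direction, or between days 11 and 13, where 0.224% were called higher and 0.0943% lower. The rises of the 2 days after the change to HGF and KGF were 39.5-fold for H19, 22.5-fold for IGF2 and 7.62-fold for PLAGL1 as ratios of the values, that of H19 being set by the maximum.

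**Figure D3:**
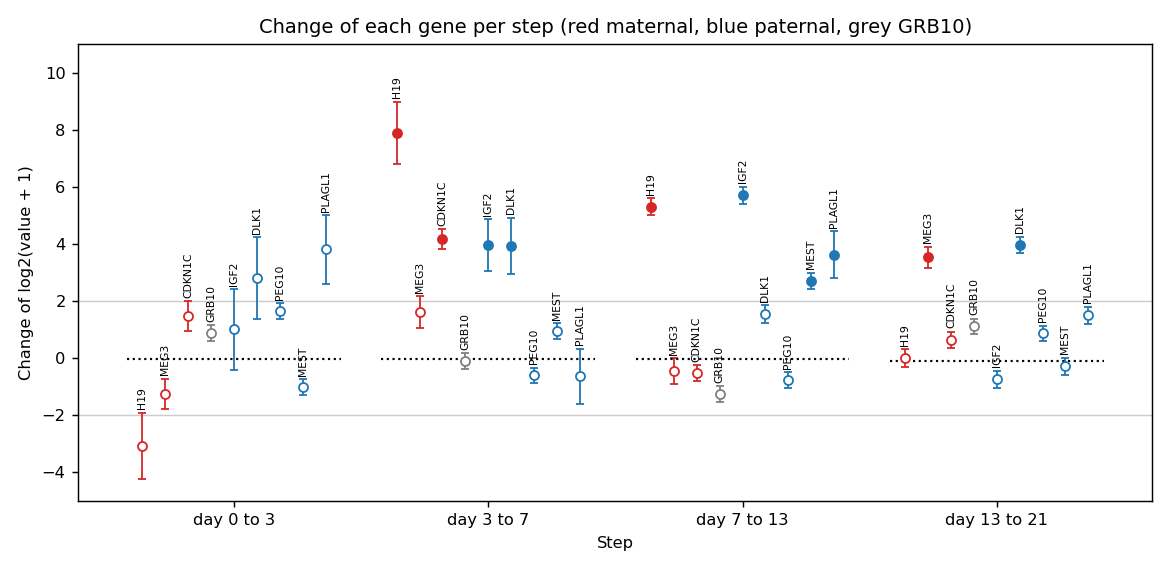
Change of log2(value + 1) in each of the 4 steps for the 9 genes, red for maternally expressed, blue for paternally expressed and grey for GRB10, with bars of 1 SD of the log2 differences between days 9 and 11 at the same levels. Filled points were called (beyond the grey lines at 2 and -2, with a larger value of at least 50), open points were not, and dotted lines give the median of all genes, so that calls are seen in both colours in the last 3 steps and in none from day 0 to day 3.

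The maternally and paternally expressed genes were contrasted by their median changes. With 3 and 5 genes, each median is the change of 1 gene, and that gene differed between steps. In the Activin A step the median was -1.26 for the 3 maternal and 1.64 for the 5 paternal genes, a difference of -2.89. These are the changes of MEG3, from 42 to 17, and of PEG10, from 478 to 1490. H19, MEG3, IGF2, DLK1 and PLAGL1 were all below 50 on days 0 and 3. From day 3 to day 7 the medians were 4.17 (CDKN1C) and 0.94 (MEST), a difference of 3.23. From day 7 to day 13 they were -0.46 (MEG3) and 2.70 (MEST), a difference of -3.16. From day 13 to day 21 they were 0.64 (CDKN1C) and 0.86 (PEG10).

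The sign of the difference thus changed between steps, and the ranges of the classes overlapped in each step. From day 3 to day 7 the maternal genes ran from 1.61 (MEG3) to 7.89 (H19) and the paternal ones from -0.64 (PLAGL1) to 3.97 (IGF2). From day 7 to day 13 the maternal range was -0.53 (CDKN1C) to 5.30 (H19), and the paternal range was -0.77 (PEG10) to 5.70 (IGF2). Calls were spread over both classes, with 2 maternal and 2 paternal genes from day 3 to day 7, 1 and 3 from day 7 to day 13, and 1 and 1 from day 13 to day 21. From day 0 to day 21, 3 of 3 maternal and 4 of 5 paternal genes rose, with medians of 5.75 and 8.28. The last difference of -2.53 depends on genes listed at 0 on day 0, and it became -0.47 with a pseudocount of 5 in place of 1, and 0.45 with GRB10 counted as paternal.

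Correlations across the 10 libraries are given as a description, over days that share a scale and without replicates. The 15 pairs of a maternal with a paternal gene had a median r of 0.746, from -0.117 (H19 and PEG10) to 0.975 (H19 and IGF2). The 13 pairs within a class had a median of 0.737, from -0.402 (PEG10 and MEST) to 0.917 (IGF2 and DLK1). GRB10 had an r of 0.790 with PEG10 and a median of 0.038 over its 8 pairs.

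Over the steps in which H19 and IGF2 rose, the summed values of stromal genes and of hepatocyte genes were both larger at the end than at the start. The summed value of 11 stromal genes was 3093 on day 0, 2172 on day 3, 1548 on day 5, 5376 on day 7, 19238 on day 9, 21639 on day 11, 39491 on day 13 and 42127 on day 21. LUM, a proteoglycan of connective tissue, was listed at 0 on days 0 to 3 and had 145 on day 7, 2643 on day 9 and 4866 on day 13. COL3A1 had 21 on day 3, 2643 on day 7 and 6502 on each later day. THY1 went the other way, from 2164 on day 0 to 12 on day 21, and TAGLN was highest on day 1.

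Over the same days the hepatocyte sum went from 13288 on day 7 to 27888 on day 9. TTR alone went from 3430 to 18734 between these days, while APOA1 went from 4855 to 3428 and FGB was 4866 on both. The median of the 7 hepatocyte genes went from 65 to 704. The sum of 5 hepatoblast genes, DLK1 left out, was 131 on day 3, 21184 on day 7 and 19382 on day 21. AFP was at 18734 on days 7 and 21, and the median of the 5 was 28, 768 and 63 on days 3, 7 and 21. The sum of 8 red blood cell genes was at most 47 up to day 7, 163 on day 9, 5741 on day 13 and 2800 on day 21, and none of the 8 was at 0 from day 9. The sum of 6 endothelial genes ran from 382 to 2120, of 4 trophoblast genes from 41 to 481, and of 3 blood and macrophage genes from 13 to 74 up to day 13 with 525 on day 21. The muscle gene CNN1 lay between 12 and 86. The part of these cell types in the changes of the imprinted genes was not tested, and in bulk RNA a change in the number of cells of a type cannot be told apart from a change in RNA per cell.

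The genes whose profiles were most like those of the 9 genes were taken by Pearson r over the 10 libraries, among 4322 genes that spanned at least 2 log2 units and reached 50. For H19 they were ANTXR2 (0.996), ACTA2 (0.989), LUM (0.985), DACT3 (0.985) and ADARB1 (0.984), of which ACTA2 and LUM are on the stromal list. H19 was at the maximum on days 9, 11, 13 and 21, so its order of likeness was taken on a profile held flat there. For IGF2 they were CREB3L1 (0.993), IGFBP3 (0.991) and MSRB3 (0.990). ANTXR2, an anthrax toxin receptor that binds matrix, went from 56 on day 3 to 176 on day 7 and 434 on day 13, a smaller range than that of H19.

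For DLK1 the most alike were STAT2 (0.990), SUSD1 (0.985) and TXNDC11 (0.985), and for MEG3 they were MIB2 (0.971), GOLGA8A (0.951) and AKAP5 (0.937). MIB2, a ubiquitin ligase of the Notch pathway, had 138 on day 13 and 355 on day 21. For CDKN1C they were EXT1 (0.991), SLC7A7 (0.989) and GSTA2 (0.989). MEST was most like C11orf54 (0.990), CD82 (0.985) and G0S2 (0.984), and PLAGL1 was most like AC092329.1 (0.971), ABCA5 (0.965) and COL5A1 (0.963). PEG10 was most like FBN2 (0.936), APLP1 (0.931) and RP11-398H6.1 (0.919), and all of these were highest on day 5. FBN2, a fibrillin of embryonic matrix, had 1185 on day 3, 18734 on day 5 and 1326 on day 7. GRB10 was most like CXCR4 (0.930), KLF8 (0.905) and ERBB4 (0.880), each highest on day 3.

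Of 24 genes that neighbour the 10 chosen genes, those of PEG3 included, 12 had a row, and 6 were called in at least 1 of the 4 steps: IGF2-AS1, DIO3, TFPI2, DDC, COBL and PHACTR2. Of all genes tested in any of the 4 steps, 16.9% were called in at least 1. In the Activin A step 3 of 7 tested neighbours rose (DIO3, TFPI2 and PHACTR2), beside the 3.94% of all tested genes. From day 3 to day 7, 2 of 9 rose (DDC and COBL) and 1 fell (TFPI2), beside 5.63% and 4.41%. From day 7 to day 13, 1 of 9 rose (IGF2-AS1) and 1 fell (DIO3), beside 3.08% and 2.46%, and from day 13 to day 21, 1 of 9 rose (DIO3), beside 2.28%. PHACTR2, beside PLAGL1, had 118 on day 0, 789 on day 3 and 201 on day 21, with an r of 0.140 to PLAGL1.

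**Figure D4:**
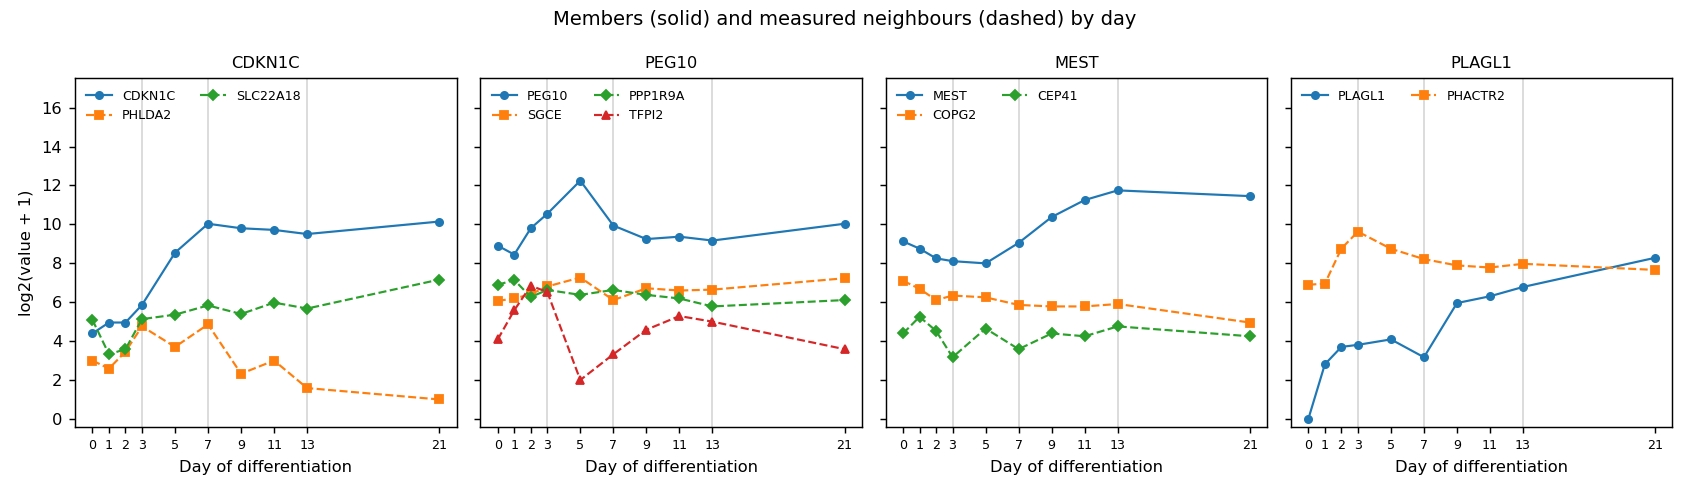
Values as log2(value + 1) by day for CDKN1C, PEG10, MEST and PLAGL1 (solid) with their measured neighbours (dashed), 1 library per day. CDKN1C goes from 57 on day 3 to 1045 on day 7 while SLC22A18 and PHLDA2 are not called in that step, PEG10 and TFPI2 take opposite courses around day 5, and PHACTR2 is highest on day 3.

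A list of 20 further genes named as imprinted shares PPP1R9A with the neighbours. Whether each of them is imprinted in human cells was not examined. Of the 20, 13 had a row, and 2 of these were called in a step, beside the 16.9% of all tested genes. SLC38A4, an amino acid transporter, fell from 118 on day 0 to 12 on day 3. DCN, the proteoglycan decorin and a stromal marker, rose from 9 on day 7 to 2802 on day 13. The other 11 were not called, among them NDN, SNRPN, NNAT, GNAS and IGF2R. The median change of the 13 from day 7 to day 13 was 0.38, where that of all genes was -0.04.

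The genes that bind or transmit IGF2 were examined as a list of 15, of which 13 had a row and 5 were called in a step, beside the 16.9% of all tested genes. IGFBP3, the binding protein that carries most circulating IGF, had 29 on day 3, 634 on day 7, 2969 on day 9, 6495 on days 11 and 13 and 4858 on day 21, and it rose in the same 2 steps as IGF2. IGFBP2, abundant in stem cells, fell from 1736 on day 0 to 322 on day 3. IGFBP5 rose from 21 on day 3 to 325 on day 7, fell to 31 on day 13 and rose to 1158 on day 21.

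IGFBP6, which binds IGF2 in preference to IGF1, rose from 12 on day 0 to 91 on day 3 and to 604 on day 7, then fell to 57 on day 13 and to 5 on day 21. IGFBP5 and IGFBP6 thus rose with IGF2 from day 3 to day 7 and fell from day 7 to day 13, where IGF2 rose again. IRS1, the docking protein below the receptors, rose from 64 on day 3 to 306 on day 7 and was 839 on day 13. The receptors were not called in any step: IGF1R lay between 222 and 566, INSR between 76 and 206, and IGF2R, which clears IGF2, between 422 and 1216. IGFBP4, IRS2 and the RNA-binding proteins IGF2BP1, IGF2BP2 and IGF2BP3 were not called either. In all, 4 of 13 tested genes of the list rose from day 3 to day 7, beside the 5.63% of all tested genes given above.

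**Figure D5:**
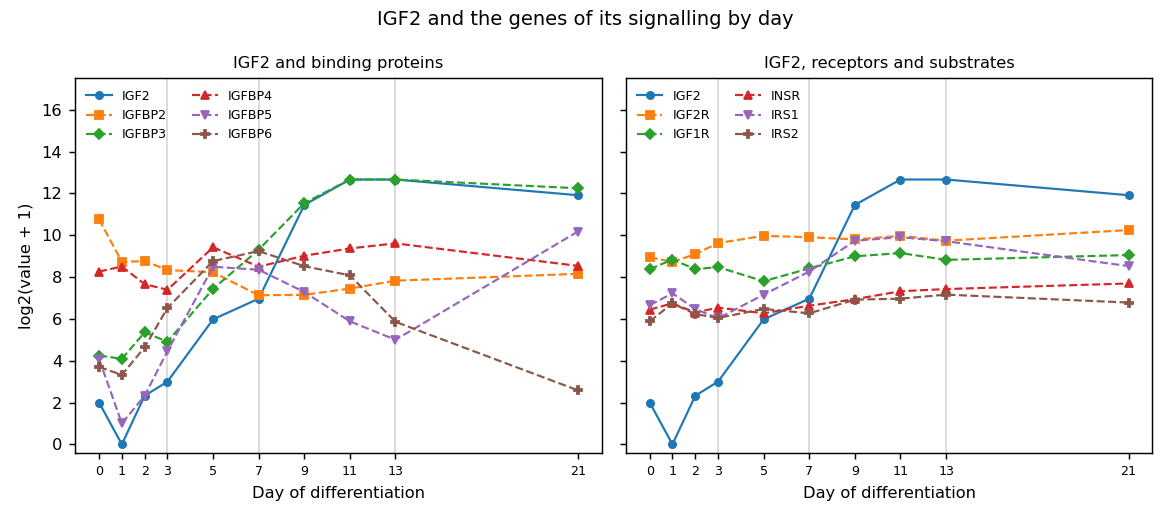
Values as log2(value + 1) by day for IGF2 (solid) with its binding proteins (left) and with receptors and substrates (right), 1 library per day. IGFBP3 follows IGF2 to the level of 6495, IGFBP6 goes from 604 on day 7 to 5 on day 21, and IGF1R, INSR and IGF2R stay within 4-fold.

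Imprints are kept after fertilisation by zinc finger proteins, their cofactor TRIM28 and the methyltransferase DNMT1. A list of 16 genes held such genes beside others, among them DNMT3A, DNMT3B, TET1, TET2, TET3 and CTCF. Of the 16, 12 had a row, and the zinc finger gene ZFP57 was among those without. None of the 12 rose and 3 fell in a step, beside the 16.9% of all tested genes called in either direction. DNMT3B, a de novo methyltransferase of the early embryo, fell from 3862 on day 0 to 956 on day 3 and was 77 on day 21. TET1, which oxidises methylcytosine, had 144 on day 3 and 260 on day 7 and fell to 50 on day 13, and H19 and IGF2 rose in both of these steps. UHRF1, which brings DNMT1 to replicated DNA, fell from 60 on day 13 to 10 on day 21. DNMT1 was 568 on day 0 and 141 on day 21, TRIM28 was 2164 and 582, and CTCF, the factor that binds the control region between H19 and IGF2, was 252 and 104, and these 3 were not called in any of the 4 steps. Between days 0 and 21 DNMT1 was called lower, by 4.03-fold as a ratio of values. Methylation of the control regions was not measured.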

How the data were processed

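RNA-seq of H1 cells was made by the authors with TruSeq RNA libraries on a MiSeq, 1 library per day. Per the study's methods and the submitters' processing notes, reads were aligned to an Ensembl transcriptome (a mouse build, mm10, is named in the methods, and the notes also list hg19; the gene identifiers are human) with Bowtie2 2.2.0 and RSEM 1.2.17, and were normalised for GC content with EDASeq. The values the authors deposited are scores, whole numbers whose sorted levels are nearly the same in every library, and no count test fits them. Columns were matched to days by name.

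The members and gene lists were chosen with earlier results of these data known. Named genes are the members, listed genes called in any of 4 steps (else the 2 of largest range), and the 5 genes most like H19 or 3 most like each other member. Differences of log2(value + 1) were computed with Python 3.11.15, numpy 2.4.6 and pandas 2.3.3, and called at 2 or more where the larger value reached 50. The code was tested on simulated data. Coordinates are those of the table. RefSeq sequences (GRCh38.p14) were matched by symbol: promoters for 5 of 9 members (19 starts) and 5 mature microRNAs. No test was possible with 1 library per day, and p-values are not given. Intervals that need counts are not given, because the values are not counts and only an average depth is reported. Alternatives were other pseudocounts, minimum values and folds, scaling by the median of ratios, leaving out members at 2000 or more, GRB10 in either class, and day 11 in place of day 13.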

Additional observations from a re-analysis of the deposited data

How the results depend on the processing

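No paired analysis was possible because each day has 1 library, and for the same reason no library could be left out within a day. Scaling by the median of ratios shifted all genes by 0.19 log2 units from day 0 to day 21 and by at most 0.09 in a step, and it moved none of the 45 changes of single members by more than their SD. Without a minimum value, 2 members were higher and 1 lower from day 0 to day 3, and a log2 difference of 1 gave the same counts there, 1 lower from day 7 to day 13 and 4 higher from day 13 to day 21. A minimum of 200 left 2 higher from day 3 to day 7. Leaving out members that reached 2000 left 1 higher from day 7 to day 13, 1 from day 13 to day 21 and 3 from day 0 to day 21, with medians of -0.49 from day 7 to day 13, a change of sign, and 3.42 from day 0 to day 21. With day 11 in place of day 13 the median from day 7 was 0.84. The maternal minus paternal difference also moved. For day 0 to day 3 it came to -2.23 at a pseudocount of 5 and -1.83 with GRB10 maternal. From day 3 to day 7 it was 1.95 with GRB10 maternal and 3.76 with GRB10 paternal. From day 7 to day 13 it was -2.03 without members at 2000, -2.58 with GRB10 paternal and -2.52 to day 11, and from day 13 to day 21 it was 0.90 without members at 2000, a change of sign. Over days 0 to 21 it was -4.47 and -0.47 with pseudocounts of 0.1 and 5, -0.12 without members at 2000, -3.69 with GRB10 maternal and 0.45 with GRB10 paternal. The SD between days 9 and 11 at a value of 50 was 0.45 with a pseudocount of 5. Of 131 values of this kind under the alternatives, 104 stayed within the tolerance set for them. That tolerance let counts differ a little, and let medians and class differences differ by less than 1 SD of days 9 and 11. Counts that went from 4 to 5 or from 7 to 8 are among the 104. So is the maternal minus paternal difference from day 13 to day 21, which went from -0.22 to 0.01 with GRB10 maternal, a change of sign. Of the alternative values for single members, 139 stayed within their SD, 17 moved beyond it and none that was called changed sign. Adding AC132217.4 to IGF2, an alternative chosen after seeing the data, left its 3 changes within their SD. The cause of these moves was not tested. Values under 20, with an SD of 0.63 or more, limit what can be said of H19, IGF2, DLK1 and PLAGL1 on days 0 to 3.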

Other observations

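DLK1 resembles Notch ligands, and of 6 Notch genes listed 5 had a row. NOTCH1 fell from 176 on day 3 to 36 on day 7 and had 119 on day 13 and 148 on day 21, and DLK1 rose from day 3 to day 7 and from day 13 to day 21. NOTCH2 had 210 on day 3 and 659 on day 21, NOTCH3 was highest on day 5 at 1021, JAG1 had 180 on day 0 and 58 on day 21, and HES1, a Notch target, had 234 on day 1 and 11 on day 21. None of these 4 was called in any of the 4 steps. Thus 1 of the 5 was called in a step, beside 16.9% of all tested genes.

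CDKN1C was also set beside other inhibitors of cyclin-dependent kinases, of which 3 of 6 listed had a row. None of the 3 was called in any of the 4 steps, beside 16.9% of all tested genes called in at least 1. CDKN1A, which encodes p21, had 90 on day 3, 300 on day 5, 58 on day 7 and 303 on day 21. CDKN2B had 44 or less on every day, and its log2 change of 2.51 from day 7 to day 13 (6 to 39) was below the minimum value. CDKN1B lay between 80 and 132. CDKN1C rose 18.3-fold as a ratio of values from day 3 to day 7, while CDKN1A had 58 on day 7.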
